A study of Drosophila melanogaster with 2 samples.

Results

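Chromatin immunoprecipitation followed by sequencing (ChIP-seq) mapped the transcription factor Fer2 in whole Drosophila melanogaster embryos, and the regions described are the called peaks that lie at the starts of non-coding RNA (ncRNA) genes. Both samples came from a transgenic line that stably expresses Fer2 with GFP at its C terminus. The embryos were 6 to 24 h old, the chromatin was sonicated to 200 to 800 bp, and the antibody recognised GFP, per the labels. The 2 biological replicates, numbered 2 and 3 by the submitters, form 1 group, and whole embryos mix all cell types. No sample without the tagged protein is analysed here, so no value below is a comparison with a control. A region was kept if its summit, in the list of 30000 peaks called on the pooled replicates, lay within 500 bp of a transcript start of a gene of biotype ncRNA in the Ensembl annotation and more than 500 bp from every protein-coding start. This rule kept 681 of the 30000 pooled peaks. It used positions and no signal value.

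The 681 regions are called ncRNA promoter peaks below. By the nearest gene, 536 lay at long non-coding RNAs (lncRNA), 82 at RNAs named as antisense (asRNA), 51 at microRNA (miRNA) loci and 12 at other RNAs, among them the hosts of small nucleolar RNAs (snoRNAs). The label "promoter" holds only in part. The annotation gives the end of the hairpin or of the mature product as the start of a miRNA gene, so the 51 peaks at miRNA loci are not at known promoters. They stay in the counts, and values without them are given with the processing alternatives. The 681 peaks were nearest to 589 ncRNA genes, of which 502 had 1 peak, 83 had 2 and 4 had 3 or more, so neighbouring peaks can share a start.

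Fer2 belongs to the basic helix-loop-helix (bHLH) transcription factors, which act as dimers and recognise the E-box, CANNTG. In adult flies it is known for its role in dopamine neurons and the clock. Most lncRNA genes are transcribed by RNA polymerase II from promoters like those of protein-coding genes, and some serve as hosts from which miRNAs or snoRNAs are cut out. Other ncRNAs, such as the RNA of the signal recognition particle (7SL), are short and transcribed by RNA polymerase III.

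The highest ncRNA promoter peaks show what the called summits look like in sequence. The summit base and 50 bases on either side are printed for 6 of the 7 peaks with the highest signal value, plus strand of dm6, from the NCBI RefSeq copy of that assembly, with every CANNTG in capitals. They are chrX:12751350-12751450 and chrX:12752310-12752410, before and after the start of lncRNA:CR44619, chr2L:14024037-14024137 at lncRNA:CR31840, chr3R:17700504-17700604 before lncRNA:CR46036, chr3R:29214387-29214487 before lncRNA:CR31044, and chrX:15298450-15298550 before asRNA:CR44429.
lncRNA:CR44619 upstream peak: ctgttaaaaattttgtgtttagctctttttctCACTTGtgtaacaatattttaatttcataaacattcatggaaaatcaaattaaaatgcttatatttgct
lncRNA:CR31840 peak: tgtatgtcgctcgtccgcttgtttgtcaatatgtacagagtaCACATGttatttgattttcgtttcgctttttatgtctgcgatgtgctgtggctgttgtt
lncRNA:CR46036 peak: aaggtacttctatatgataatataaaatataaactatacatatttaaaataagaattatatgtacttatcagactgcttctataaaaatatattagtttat
lncRNA:CR44619 downstream peak: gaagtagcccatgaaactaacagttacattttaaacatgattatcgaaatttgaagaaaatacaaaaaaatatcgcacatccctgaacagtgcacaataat
lncRNA:CR31044 peak: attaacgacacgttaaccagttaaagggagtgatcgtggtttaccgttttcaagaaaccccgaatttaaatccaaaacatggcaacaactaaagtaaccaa
asRNA:CR44429 peak: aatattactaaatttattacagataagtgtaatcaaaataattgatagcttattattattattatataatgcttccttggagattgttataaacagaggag

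An E-box was present in the upstream window of lncRNA:CR44619 and in the window of lncRNA:CR31840, and in none of the other 4. Most of the windows were AT-rich. GC content was 22.8% and 30.7% in the upstream and downstream windows of lncRNA:CR44619, 16.8% at lncRNA:CR46036 and 21.8% at asRNA:CR44429, and it was higher at lncRNA:CR31044 (37.6%) and lncRNA:CR31840 (40.6%).

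As a group, the ncRNA promoter peaks were no stronger than a pooled peak at large. A second list by the authors was reduced by a threshold on the irreproducible discovery rate, a measure of how well peaks recur. Each of its peaks is also in the pooled list, and it is called the thresholded list. Of the 681 ncRNA promoter peaks, 67 were in the thresholded list (9.84%, 95% Wilson interval 7.82 to 12.3), against 9.54% of all 30000 pooled peaks. The difference from all other pooled peaks was 0.31 percentage points (95% Newcombe interval -1.74 to 2.79), so the share was at the background. Intervals over peaks cover counting error in these lists and not the spread between replicates.

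The share was lower than at protein-coding promoters and higher than away from starts. Of 7834 pooled peaks within 500 bp of a protein-coding start, 20.4% were thresholded (95% Wilson interval 19.5 to 21.3), a difference of -10.5 percentage points for ncRNA promoter peaks (95% Newcombe interval -12.8 to -7.93). Of 21327 peaks beyond 500 bp of every annotated start, 5.58% were thresholded (5.28 to 5.90), a difference of 4.25 points (2.21 to 6.74). The remaining 158 pooled peaks lay within 500 bp only of starts of other gene biotypes. Of these, 7 were thresholded (4.43%, 2.16 to 8.86). The signal value, a score of the authors' peak caller with no stated scale, showed the same order when these 158 were left aside. Its median was 23.7 at ncRNA promoter peaks (95% interval 22.7 to 24.9), 32.4 at protein-coding promoters (31.6 to 33.2) and 22.5 away from starts (22.3 to 22.6). At the 158 it was 24.2 (22.1 to 25.7). The median rank of an ncRNA promoter peak was 15365 of 30000. By kind of RNA the thresholded share was 9.51% for lncRNAs (51 of 536), 12.2% for asRNAs (10 of 82, interval 6.76 to 21.0) and 7.84% for miRNA loci (4 of 51, interval 3.09 to 18.5), and these intervals overlap.

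**Figure D1:**
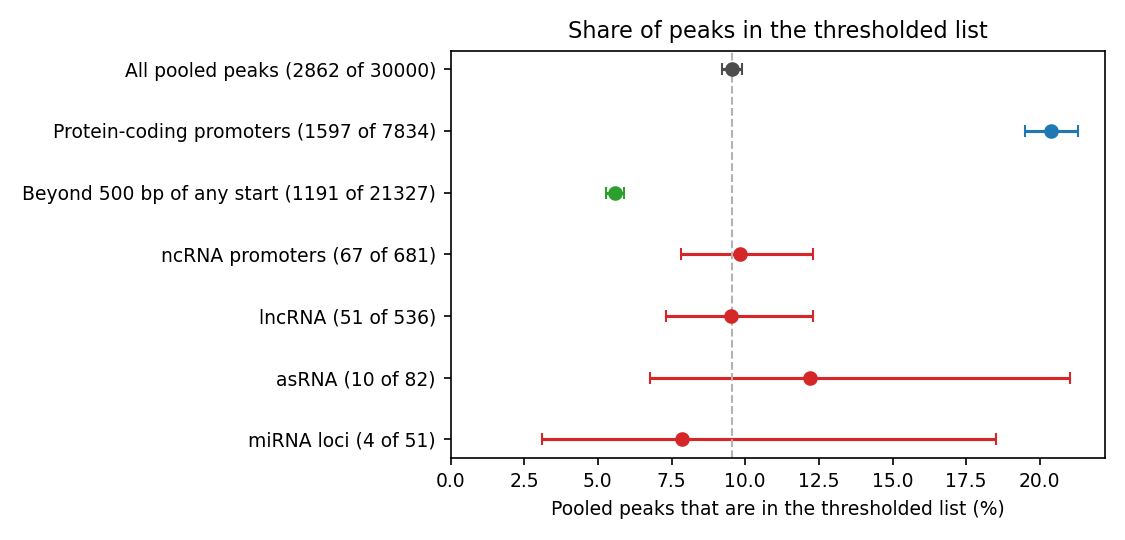
Percent of pooled peaks that are in the thresholded list (horizontal axis), by the kind of start at the summit, with counts in the labels. Points are shares, bars 95% Wilson intervals, and the dashed line is the 9.54% of all pooled peaks. The 67 of 681 at ncRNA promoters sit on that line, below protein-coding promoters at 20.4% and above peaks beyond 500 bp of any start at 5.58%. The 158 peaks at starts of other gene biotypes are not shown.

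The ncRNA promoter peaks were spread over the window around the start, while peaks at protein-coding promoters gathered just upstream. The median summit lay 41 bp upstream of the ncRNA start (95% interval 2 to 61), with quartiles 258 bp upstream and 240 bp downstream. Of the 681 summits, 367 were upstream (53.9%, 95% Wilson interval 50.1 to 57.6), against 65.5% at protein-coding promoters (difference -11.6 points, Newcombe interval -15.5 to -7.77). Within 100 bp of the start were 21.4% of ncRNA promoter summits and 36.3% of protein-coding ones (difference -14.9 points, -18.0 to -11.5). The small lean upstream rested on 1 replicate and on the window. With windows of 1000 bp the median was 5.5 bp downstream (95% interval -51 to 68), with 49.8% upstream. With the same rule on the peaks of replicate 3 alone the median was again 41 bp upstream, while in the list of replicate 2 alone it was 21 bp downstream (95% interval -16 to 55), with 47.9% upstream.

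The 67 thresholded ncRNA promoter peaks lay upstream more often, at a median of 146 bp (95% interval 67 to 200), and 46 of them were on the upstream side (68.7%, 56.8 to 78.5). Even these were less gathered than the 1597 thresholded protein-coding promoter peaks, of which 85.1% lay upstream (difference -16.4 points, Newcombe interval -28.4 to -6.43). Within 100 bp of the start were 14.9% of the thresholded ncRNA promoter summits and 34.4% of the protein-coding ones (difference -19.5 points, -26.5 to -8.79). More than 100 and up to 300 bp upstream, where protein-coding promoter peaks were most often thresholded (33.6%, 797 of 2373), 13.6% of ncRNA promoter peaks were (20 of 147, difference -20.0 points, -25.0 to -13.2). More than 300 and up to 500 bp downstream the shares were 10.4% (13 of 125) and 7.13% (46 of 645), and the interval of that difference held 0 (-1.52 to 10.1). How exactly a start is annotated can set these distances, and its part was not tested.

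**Figure D2:**
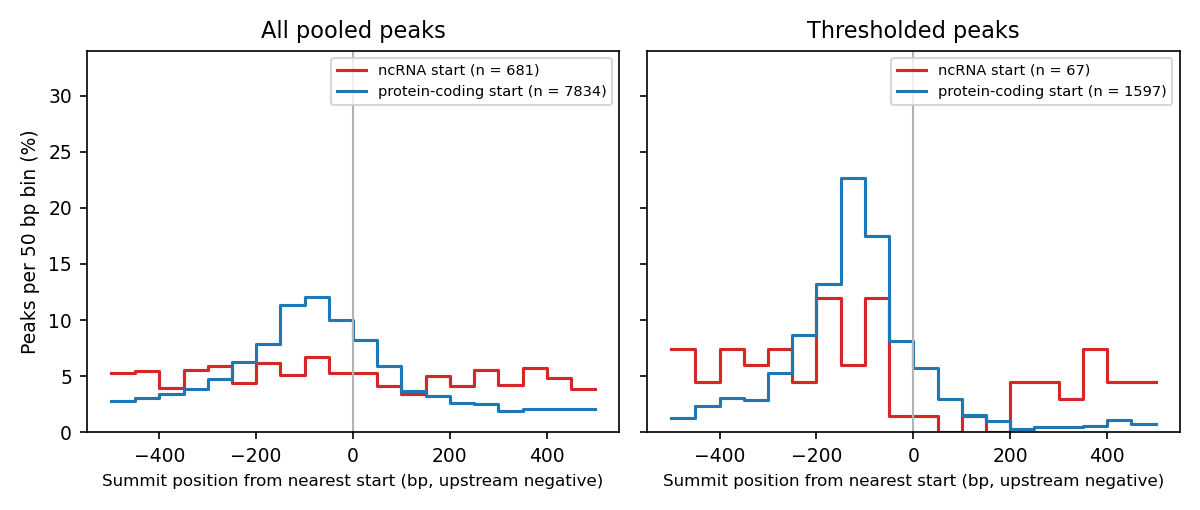
Summit position relative to the nearest start (horizontal axis, bp, upstream negative) as a percent of peaks per 50 bp bin (vertical axis), for pooled peaks (left) and thresholded peaks (right) at ncRNA starts and at protein-coding starts. The 681 ncRNA promoter peaks are nearly level over the window, the protein-coding ones peak upstream, and the 67 thresholded ncRNA promoter peaks have a median of 146 bp upstream.

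The 20 highest ncRNA promoter peaks belonged to 18 genes, 17 of the peaks at lncRNAs, 2 at asRNAs and 1 at the snoRNA host Uhg4. All 20 were in the thresholded list, at pooled rank 593 or better, and each was overlapped by a peak ranked 676 or better in replicate 2 and 890 or better in replicate 3. Of these 20 summits, 15 were upstream of the nearest ncRNA start, 15 lay outside protein-coding genes and 5 in their introns. For lncRNA:CR44810 and lncRNA:CR43626 that start was inside the gene, and so was the summit. Most of the genes are known by number only, with no role given in the annotation.

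The highest was at lncRNA:CR44619 (FBgn0265830; X 12750866 to 12751605), 467 bp upstream of its start. Its signal value was 1056 in the pooled list (rank 15), 556 in replicate 2 and 561 in replicate 3. This summit also lay inside lncRNA:Vinr, an RNA known for a role in antimicrobial defence, whose own start was farther away. A second peak of the same gene (X 12752199 to 12752516, 493 bp downstream) had 561 in the pooled list (rank 70), 225.0 in replicate 2 and 331 in replicate 3. The summits of the pair were 960 bp apart, and both were high in each replicate.

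The next highest was at lncRNA:CR31840 (FBgn0051840; 2L 14023921 to 14024280), 12 bp downstream of its start, at 883 in the pooled list (rank 26), 351 in replicate 2 and 549.6 in replicate 3. It is a gene of 378 bp with no protein-coding start nearer than 2914 bp. Another thresholded peak stood 1740 bp away, 314 bp upstream of lncRNA:CR45352 (rank 290; 164 in replicate 2, 123 in replicate 3). The peak at lncRNA:CR44339 (2R 12985049 to 12985379, 163 bp upstream, rank 48) had 277 in replicate 2 and 347 in replicate 3. Its nearest protein-coding start was that of Psc, a Polycomb group gene, 4210 bp away.

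Of the 20 summits, 5 lay in an intron of a protein-coding gene, in 4 genes. The peak at lncRNA:CR46036 (3R 17700399 to 17700761, 187 bp upstream, rank 67) was in an intron of osa, which encodes a subunit of the Brahma chromatin remodelling complex, at 324 in replicate 2 and 258 in replicate 3. The peak at asRNA:CR44429 (X 15298316 to 15298655, 283 bp upstream, rank 104) was in an intron of gce, which encodes a bHLH-PAS receptor of juvenile hormone, at 268 in replicate 2 and 198 in replicate 3. It was only 509 bp from a start of gce, just outside the limit. A pair of peaks 925 bp apart stood before lncRNA:CR44867 (rank 371) and lncRNA:CR44868 (rank 184), both in an intron of beat-Ib, of a family known from axon guidance. The peak at lncRNA:CR46265 (3R 18719851 to 18720084, 323 bp downstream, rank 550) was in an intron of ChAT, which encodes the enzyme that makes acetylcholine.

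The rest of the 20 stood at lncRNA:CR44676 (rank 254), lncRNA:CR42657 (rank 311), lncRNA:CR45541 (rank 419), lncRNA:CR44810 (rank 450), lncRNA:CR45251 with peaks at ranks 563 and 593, lncRNA:CR43626 (rank 571) and asRNA:CR43469 (rank 582). The lncRNA:CR42657 peak was 670 bp from a start of nej, which encodes the fly CBP acetyltransferase. Only lncRNA:CR44619 and lncRNA:CR45251 had 2 thresholded peaks, so the 67 thresholded peaks belonged to 65 genes.

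Genes that host miRNAs or snoRNAs carried thresholded peaks more often than other ncRNA genes. A host was taken as an ncRNA gene, itself no miRNA entry, with a miRNA precursor or snoRNA inside it on the same strand. Of 47 hosts, 7 had a thresholded ncRNA promoter peak within 500 bp of a start (14.9%, 95% Wilson interval 7.41 to 27.7), against 54 of 2473 other ncRNA genes (2.18%, 1.68 to 2.84). The difference was 12.7 percentage points (Newcombe interval 5.19 to 25.5), and it was 12.6 with the list of replicate 2 alone and 10.4 with that of replicate 3 alone. This comparison was added after the hosts' values were seen. Any ncRNA promoter peak was found at 19 hosts (40.4%) and at 543 of the others (22.0%). Hosts were longer (median 4229 bp against 701 bp) and had more annotated starts (a mean of 1.55 against 1.06 per gene). With 1 start per gene the difference was 8.33 points (2.29 to 20.3), with 1000 bp windows 5.599 (0.395 to 17.0), and with the highest 50% of thresholded peaks 7.46 (2.29 to 18.9). The part of gene length was not tested.

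The highest of the hosts was lncRNA:CR31044 (FBgn0051044; 3R 29214278 to 29214580), which contains mir-279 and mir-996. Both miRNAs are known from the development of sensory neurons. Its peak, 125 bp upstream of the start, had 545.0 in the pooled list (rank 77), 238 in replicate 2 and 309.9 in replicate 3, and ranked 76 and 78 in the replicates. Uhg4 (FBgn0083124; 2R 9095055 to 9095353), host of 7 annotated snoRNAs that guide modification of ribosomal RNA, had its peak 67 bp upstream, at 312 in the pooled list, 133 in replicate 2 and 192 in replicate 3. The lncRNA:CR43626 peak (3L 3250222 to 3250370), at the host of mir-282, lay inside the gene, 325 bp upstream of an internal start. It had 209 in the pooled list, 115.3 in replicate 2 and 92.5 in replicate 3. These 3 were high in both replicates, while Hsromega, the host of mir-4951 described below, was not.

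The other hosts with a thresholded peak were lower. The host of mir-8, a miRNA known for control of growth, is lncRNA:CR43650. Its highest peak (2R 16830415 to 16830784, rank 1810) lay inside the gene, 89 bp upstream of an internal start. This peak had 49.5 in replicate 2 and 59.1 in replicate 3. The peak at asRNA:CR46194 (2R 12171938 to 12172307, rank 1805), the host of mir-281-1 and mir-281-2, had 52.8 in replicate 2 and 44.1 in replicate 3. The snoRNA host Uhg1 (2R 17698838 to 17699207, 74 bp upstream, rank 2726) had 21.5 in replicate 2 and 57.2 in replicate 3, so replicate 2 gave it a far worse rank (6966) than replicate 3 (1902). Among the 12 hosts whose peak was not thresholded, lncRNA:CR43334, the host of bantam (mir-ban), a growth miRNA, had a peak 3 bp from a start at pooled rank 6954, and lncRNA:CR42651, the host of mir-10, one at rank 27069.

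Peaks at miRNA loci themselves were near the level of all pooled peaks, with a median signal value of 22.5 (95% interval 19.9 to 29.7) against 24.0. Of the 51, 4 were thresholded (7.84%, against 9.54% of all pooled peaks), at mir-9377 in an intron of Tis11 (rank 648), mir-9378 (rank 1074), mir-2282 (rank 2429) and mir-275 (rank 2686). The peak at mir-275 (2L 7425195 to 7425564) had 12.3 in replicate 2 and 69.4 in replicate 3, and its rank was 17189 in the former and 1423 in the latter. It therefore rested on replicate 3.

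Well-studied ncRNAs ranged from thresholded peaks to no pooled peak. Of a list of 30 entries, 24 were found as genes of biotype ncRNA, in 25 genes because 7SL has 2 copies. Of the 25, 13 had an ncRNA promoter peak, 2 (Uhg2 and Uhg5) had only pooled peaks within 500 bp of a protein-coding start, and 10 had no pooled peak at a start. A thresholded ncRNA promoter peak was found at 4: Uhg4 and Uhg1, described above, Hsromega and flam. Over all 2780 ncRNA genes, 609 (21.9%) had an ncRNA promoter peak and 65 (2.34%) a thresholded one. A further gene, Uhg8, had a thresholded peak (rank 2005) that also lay within 500 bp of a protein-coding start.

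lncRNA:Hsromega (FBgn0001234), a nuclear RNA induced by heat shock that organises omega speckles, had its peak (3R 21296144 to 21296513) 202 bp downstream of a start, at 174 in the pooled list (rank 812). Replicates differed there, with 134 (rank 285) in replicate 2 and 42.6 (rank 2867) in replicate 3. A second, weaker Hsromega peak at pooled rank 16775 was overlapped by replicate 3 only. lncRNA:flam (FBgn0267704), the precursor of a large piRNA cluster that silences transposons in the ovary's somatic cells, had its peak (X 21631541 to 21631910) 165 bp upstream, at 102 in the pooled list (rank 1890), 52.2 in replicate 2 and 47.0 in replicate 3. The flam values were close in both replicates.

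Both RNAs of the dosage compensation complex of the male X chromosome had only weak peaks. lncRNA:roX1 was at 33.9 (rank 8735), with a replicate 2 peak at 27.9 and none in replicate 3, and lncRNA:roX2 was at 17.9 (rank 24057), with none in either. lncRNA:acal, known from dorsal closure, was at rank 6362, lncRNA:Vinr at its own start at 7688, RNaseMRP:RNA, which acts in ribosomal RNA processing, at 7879, and lncRNA:yar at 10338. The other Uhg genes, Uhg3, Uhg7 and Uhg8, had ncRNA promoter peaks at ranks 9883, 21118 and 22357. No pooled summit lay within 500 bp of a start of cherub, bxd, iab8, let7C, sphinx, noe, CRG, RNaseP:RNA or the 7SL copies. In bxd and iab8, long transcripts of the bithorax complex, pooled peaks did lie within the gene, 8 and 19 of them, at rank 3374 and 4199 at best. How many pooled peaks other regions of such length hold was not counted, so these counts show no excess.

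Counted by gene, most ncRNA starts had no thresholded peak, and those close to a protein-coding start had one more often. Of 2780 ncRNA genes on the 6 chromosome arms with mature miRNA entries left out, 609 (21.9%, 95% Wilson interval 20.4 to 23.5) had an ncRNA promoter peak. With peaks near protein-coding starts also counted, 116 (4.17%) had a thresholded summit within 500 bp. Of the 502 ncRNA genes with a protein-coding start within 500 bp, 44 had a thresholded summit at a start (8.76%), against 72 of the 2278 without (3.16%), a difference of 5.604 points (Newcombe interval 3.29 to 8.47). Its size moved with the settings, to 3.06 points with 250 bp windows, 9.82 with 1000 bp windows and 3.16 with the highest 50% of thresholded peaks. For asRNAs the shares were 12.1% (22 of 182) and 3.74% (12 of 321), and for lncRNAs 7.66% (20 of 261) and 3.15% (53 of 1683). Such a peak cannot be given to either gene from its position. Of the 123 thresholded summits within 500 bp of an ncRNA start, 56 were also within 500 bp of a protein-coding start and so are outside the 67.

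**Figure D3:**
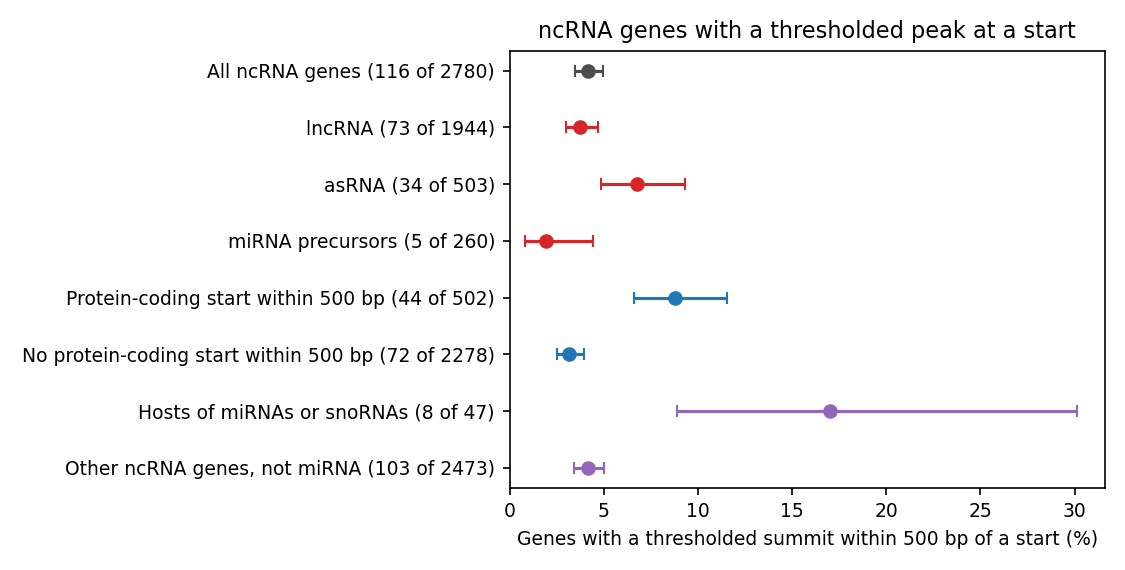
Percent of ncRNA genes with a thresholded summit within 500 bp of a start (horizontal axis), by gene kind, by whether a protein-coding start lies within 500 bp, and by whether the gene hosts a miRNA or snoRNA; points are shares, bars 95% Wilson intervals, and counts are in the labels. All thresholded peaks count here, so hosts stand at 8 of 47. Genes close to a protein-coding start (44 of 502) and hosts are above their counterparts.

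Among the ncRNA promoter peaks, distance to the next protein-coding start went with smaller differences. The thresholded share was 11.02% (13 of 118) where that start was up to 1000 bp away, 10.7% (35 of 328) from there to 5000 bp and 8.09% (19 of 235) beyond, and the difference between the first and the last had an interval that held 0 (2.93 points, -3.20 to 10.4). Summits in an intron of a protein-coding gene were thresholded in 23 of 188 cases (12.2%), those outside such genes in 43 of 442 (9.73%), and those in an exon in 1 of 51 (1.961%, interval 0.347 to 10.3). Starts on the strand opposite to a surrounding protein-coding gene gave 9.36% (16 of 171) and those on the same strand 11.9% (8 of 67). The shares of all pooled peaks in these settings are not given here, so the low exon share cannot be read as particular to ncRNA promoter peaks.

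Peaks at the edges of the rule had signal values on both sides of the overall median. In the last 12 bp inside the limit from ncRNA starts were 18 peaks with a median signal value of 22.8, of which 3 were thresholded. In the first 12 bp outside it, 17 peaks had a median of 19.1, and 1 of them was thresholded. In the first 12 bp beyond the protein-coding limit were 6 ncRNA promoter peaks with a median of 38.4, and the 2 peaks that this limit removed by as little had 23.8 and 59.1.

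Both replicates shared the thresholded ncRNA promoter peaks but only part of the others. Of all 681, 325 were overlapped by a peak of each replicate by at least 1 bp (47.7%, 95% Wilson interval 44.0 to 51.5), against 48.4% of all pooled peaks and 65.5% at protein-coding promoters. Replicate 2 alone overlapped 135, replicate 3 alone 160, and 61 were overlapped by neither. All 67 thresholded peaks were overlapped by both, which the authors' threshold on recurrence favours. Of the 67, 53 matched a peak in each replicate that ranked as high as the length of the thresholded list. The matching shares over all thresholded peaks are not given here, so neither count can be read as particular to ncRNA promoter peaks. For these 67 the replicate summits were separated by a median of 30 bp (quartiles 13.5 and 52), against 85 bp over the 325. As a description of points that share libraries and the pooled call, replicate signal correlated over the 67 with r = 0.81 (Pearson, log2 scale) and rho = 0.69 (Spearman). Over the 325 rho was 0.68. The 67 passed a threshold that favours recurrence, and its part in their summit spacing and correlations was not tested.

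**Figure D4:**
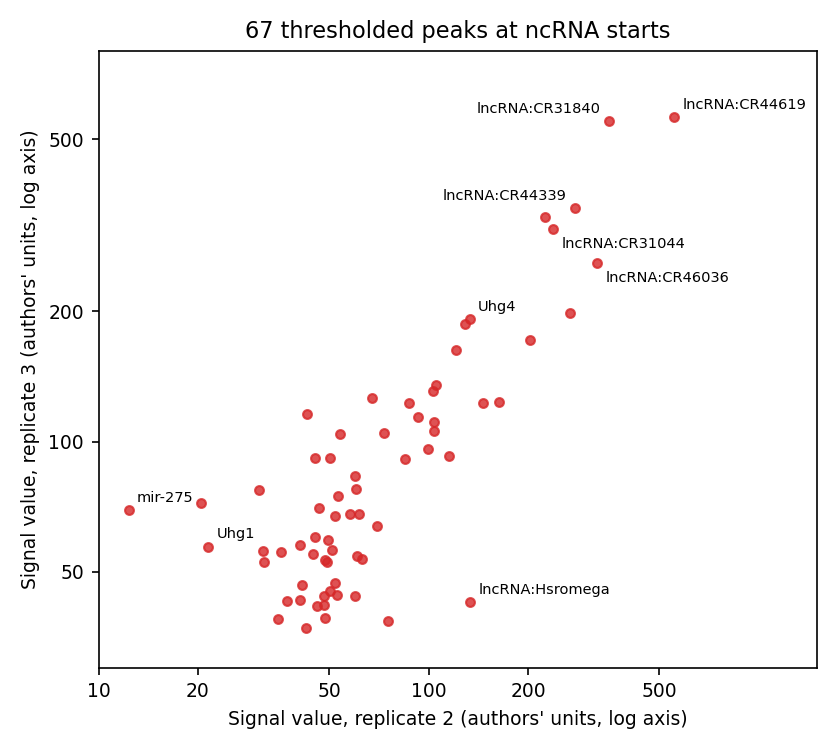
Signal value in replicate 2 (horizontal) and replicate 3 (vertical), in the authors' units on log axes, for the 67 thresholded ncRNA promoter peaks, each point the highest overlapping peak of that replicate. The peaks at lncRNA:CR44619 and lncRNA:CR31840 are high in both, while mir-275 (12.3 and 69.4) and lncRNA:Hsromega (134 and 42.6) lie away from the rest.

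Thresholded ncRNA promoter peaks were centred on AT-rich DNA, as other thresholded peaks were, and the weaker ones were not. GC content within 50 bp of the summit was 31.8% ± 8.85 (SD over 67 peaks), against 45.8% ± 7.91 in a window of the same size whose centre was 250 bp rightward and 43.0% ± 10.1 in the left one. At the other 614 it was 41.9% ± 10.02 at the summit and 41.2% ± 10.3 in the right flank. Thresholded peaks at protein-coding promoters had 31.9% ± 9.50 at the summit, and those away from starts 33.0% ± 8.98. Of the 20 highest ncRNA promoter peaks, 17 had a GC content under 35%, and the highest of the 20 was 52.5% at Uhg4.

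**Figure D5:**
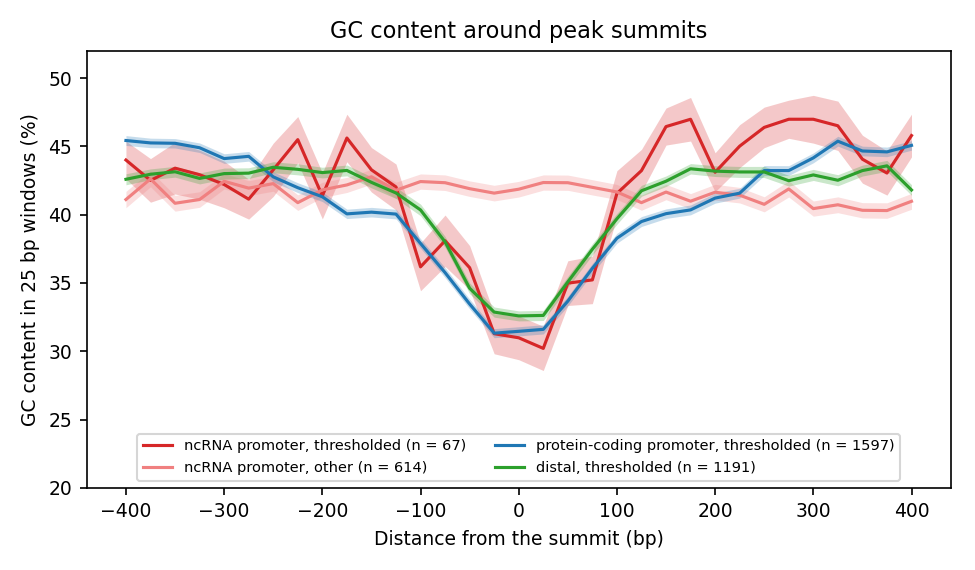
Mean GC content in windows of 25 bp (vertical axis, %) by distance from the summit (horizontal axis, bp), with bands of 1 standard error over peaks. The 67 thresholded ncRNA promoter peaks dip at the summit, as do thresholded peaks at protein-coding promoters and away from starts, while the other 614 ncRNA promoter peaks stay nearly level at about 41.9%.

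Taken as CANNTG, E-boxes were not more frequent at the summits than beside them. CANNTG was searched within 50 bp of the summit, where its reverse complement is the same pattern. It was found at 266 of the 681 ncRNA promoter peaks (39.1%, 95% Wilson interval 35.5 to 42.8), against 287 in the right flank. All pooled peaks had it at 39.9% of their summits. The interval of the difference from the flank held 0 (-3.08 points, -8.17 to 2.00). At the 67 thresholded peaks it was found at 21 (31.3%, 21.5 to 43.2), against 32 in the right flank and 23 in the left. Other thresholded summits also had it less often than their right flanks. It was at 29.8% against 39.1% for protein-coding promoters and at 36.0% against 39.8% away from starts. Of the palindromes, CACGTG was at 1 of the 67 summits, with 1 in the right and 0 in the left flanks. CAGCTG was at 0, with 5 and 1 (-7.46 points from the right flank, -13.8 to -1.17). CATATG was at 5, with 2 and 1 (4.48 points, -3.19 to 12.1). At thresholded protein-coding promoter summits CATATG was at 3.57% against 2.00% in the right flank, and away from starts at 5.04% against 3.11%. CACGTG was at 7 of the 681 summits (1.03%), in 7 right and 8 left flanks. Among the 7 were the mir-8 host peak of lncRNA:CR43650, the weak peaks of Uhg3 and Uhg7, and a weak peak of lncRNA:CR43928 (rank 7050). Over all pooled summits these 3 words were found in 1.18%, 4.26% and 3.50%.

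Of 6 other words, searched on both strands, 3 were counted at more thresholded summits than in either flank and 2 at fewer. TATAAA, the core of the TATA box, was at 16 of the 67 (23.9%, interval 15.3 to 35.3), against 6 in the right (14.9 points, 2.34 to 27.5) and 4 in the left flank, 15.4% of all pooled summits and 27.5% of thresholded protein-coding promoter summits. TAATTA, a homeodomain core, was at 6 (8.96%) and in 0 of the right (8.96 points, 2.12 to 15.8) and 5 of the left flanks, with 7.13% over all pooled summits. GATAA, in the sites of GATA factors, was at 19 (28.4%) against 11 to the right (11.9 points, -2.10 to 26.0), 16 to the left and 21.1% of all pooled summits. The element of the protein-coding core promoter TATCGATA (DRE), which contains CGATA and can overlap it, was at 0 of the 67 (interval 0 to 5.42). It was at 2.82% of thresholded protein-coding promoter summits and 0.783% of all pooled summits, and both shares lie within that interval. CGATA was at 7 of the 67, in 12 right and 8 left flanks (10.4% of summits, against 13.0% of all pooled summits), and GAGAG, bound by the GAGA factor, at 8, in 9 right and 16 left flanks (11.9% of summits, with 3300 of the 30000 pooled summits). These words differ in base content and the thresholded summits were AT-rich, and the part of base content in the counts was not tested.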

How the data were processed

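The authors deposited 4 peak lists on dm6: 1 per replicate, 1 from the pooled alignments, and 1 reduced by a threshold on the irreproducible discovery rate (IDR), per the deposited text notes. These name 1 control alignment for both replicates and the pool, so a bias in it would reach each list alike; it is not analysed here. No source used here gives the peak caller, its settings or the threshold. Each list gives a score per peak from the authors (its signal value), a deposited −log10 q-value, not used here, and a summit offset. The lists hold no read counts, so depth is unknown.

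Starts were those of every transcript in Ensembl release 115, whose coordinates are those of dm6; sequence was that of the NCBI RefSeq Release 6 assembly. Coordinates are 1-based. A pooled peak was thresholded if summit and signal value matched. A replicate peak can overlap 2 pooled peaks, and counts for each. Where several overlapped, the highest was used. Shares have 95% Wilson intervals, differences of shares Newcombe intervals, medians order-statistic intervals, and summit-flank differences a normal interval for paired shares. With 1 group no test between conditions was made and no p-value is given. Python 3.11.15 with scipy and numpy was used. Classification, word search and overlap were tested on simulated data.

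Genes named are the nearest to the 20 highest members, a list of studied ncRNAs and the 6 highest hosts of miRNAs or snoRNAs; other hosts and the miRNA loci were named after their values were seen. The members and lists were chosen with earlier results of these data known. Alternatives used 1 replicate's list alone with as many of its highest peaks as the thresholded list holds, windows of 250 and 1000 bp, 1 start per gene, 1 peak per gene, the highest 50% of thresholded peaks, other overlaps and flanks, and windows of 25 bp around the summit.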

Additional observations from a re-analysis of the deposited data

How the results depend on the processing

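No paired analysis was possible because both replicates belong to 1 group. The share of members in the thresholded list stayed within its interval with windows of 250 or 1000 bp, 1 start per gene, 1 peak per gene, without miRNA loci (63 of 630, added after the data were seen) and with either replicate's list alone (9.93% to 10.2%). With the highest 50% of thresholded peaks it was 4.99% by construction, as fewer peaks are called. The share overlapped by both replicates was 34.7% with overlap of at least 50% of both peaks and 8.96% with as many of the highest peaks of each as the thresholded list holds. The upstream share was 49.8% with 1000 bp windows and 47.9% to 54.9% with 1 replicate left out. The median summit moved to 5.5 bp downstream with 1000 bp windows, and to between -41 and 21 bp with 1 replicate left out; the cause was not tested. E-boxes were at 22.3% of summits within 25 bp, a shorter window. The share of ncRNA genes with a member was 13.6% with 250 bp and 29.5% with 1000 bp. The remaining differences were recomputed after the data were seen. The thresholded share, members minus protein-coding promoter peaks, was -14.0 points with 250 bp windows and -6.43 with the highest 50%. The difference between ncRNA genes with and without a protein-coding start nearby was 3.06 points with 250 bp, 9.82 with 1000 bp and 3.16 with the highest 50%. The difference for hosts was 5.599 points (0.395 to 17.0) with 1000 bp and 7.46 with the highest 50%. The E-box difference at thresholded members was -2.99 points against the left flank (interval -20.0 to 14.1), against -16.4 points (-32.2 to -0.612) for the right. The lists give no depth, so weak peaks that are missing cannot be told from absent binding.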

Other observations

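By chromosome arm, the thresholded share of ncRNA promoter peaks was 16.8% on 2R (20 of 119, 95% Wilson interval 11.2 to 24.5) and 15.2% on X (12 of 79, 8.91 to 24.7), against 10.1% and 10.5% of all pooled peaks on these arms. It was 14 of 175 on 2L, 8.61% on 3R (13 of 151) and 5.26% on 3L (8 of 152), against 9.35%, 9.73% and 8.59% of all pooled peaks there. On chromosome 4 it was 0 of 5 ncRNA promoter peaks, against 10 of 253 pooled peaks. The arms were looked at after their values were seen, and differences between arms were not tested.

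Neighbouring ncRNA promoter peaks formed 122 pairs with summits within 2 kb of each other, and in 4 of these pairs both were thresholded. They were the peaks of lncRNA:CR44619 (960 bp apart), of lncRNA:CR45251 (633 bp), of lncRNA:CR44867 and lncRNA:CR44868 (925 bp), and of lncRNA:CR45352 and lncRNA:CR31840 (1740 bp). Of the ncRNA promoter peaks, 64 shared an overlapping replicate peak with another one, so a pair need not be 2 separate sites. The number of such pairs among all pooled peaks is not given here.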
